A study of Mus musculus with 2 samples.

Results

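Some imprinted genes of the mouse lie inside an intron of another gene. DNA methylation was examined at 9 genes that form 4 such pairs and 1 further locus: Mcts2 within H13, Nap1l5 within Herc3, Zrsr1 within Commd1, Nnat within Blcap, and Inpp5f, whose internal variant transcript starts inside the gene itself. Mcts2, Nap1l5, Zrsr1, Nnat and the Inpp5f variant are called inserts below, and H13, Herc3, Commd1, Blcap and the full Inpp5f gene are called hosts. Members were taken by gene name from GENCODE M21, which lists 55450 genes, with every measured CpG from 5 kb upstream of the gene start to the gene end. These regions held 582 of the 1782730 CpG cytosines in the data.

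As background, each insert promoter is rich in CpGs and is an imprinted, germline methylated region, methylated on the maternal copy and unmethylated on the paternal copy, so that the insert is transcribed from the paternal chromosome. Transcription of the host across the insert in the growing oocyte is the known route by which the maternal mark is set, and binding of the zinc finger protein ZFP57 to its methylated motif protects the mark after fertilisation. The host promoters are ordinary promoters that do not carry such a mark. Retrogenes arise when a spliced messenger RNA is copied back into the genome, and they therefore usually lack introns.

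The cells were Xmas mESCs, a female mouse embryonic stem cell line of C57/Bl6 strain in which GFP and mCherry, each driven by the Hprt promoter, mark different X chromosomes. The cells were grown for 7 passages per the labels (the study's methods give another number), in the study's modified 2i/LIF suspension culture, and sorted by FACS into XX cells, which keep both reporters, and XO cells, which have lost an X chromosome. Each karyotype gave 1 reduced representation bisulfite sequencing (RRBS) library, so there were no replicates, no difference between XX and XO has a replicate error, and no test was made. Parental alleles cannot be told apart in these values, and cell identity rests on the labels, because methylation values hold no marker expression.

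The measured quantity was %mCpG, the percent of reads over a CpG cytosine that were methylated, with the strands of a CpG listed separately. The number of reads is unknown. RRBS reads the ends of fragments cut at CCGG, and 99.96% of the listed CpGs lay within 75 bp of such an end. CpGs of the same fragment end and strand, here called a read end, share their reads and are not independent, so the number of read ends is given beside the number of CpGs. In the member windows, 72 CpGs were read from both strands. Their strands differed by a median of 4.26 points in the XX and 7.44 points in the XO library. Across all autosomes, the mean level was 17.6% (XX) and 25.7% (XO).

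Annotation placed the inserts as follows (GRCm38). Mcts2, a copy of the X-linked translation factor gene Mcts1, starts at chr2:152687035 on the forward strand and lies as a single exon of 912 bp in intron 4 of H13, on the same strand and 17574 bp from the H13 start. Nap1l5, of the nucleosome assembly protein family, starts at chr6:58907076 on the reverse strand and lies in intron 22 of Herc3, which runs the other way. Zrsr1, a relative of the X-linked splicing factor gene Zrsr2, is a single-exon gene starting at chr11:22972005 on the strand opposite to Commd1. It lies wholly in intron 1 of 3 of the 4 Commd1 transcripts that span it, and some of its CpGs are also in annotated Commd1 exons.
Nnat, which encodes the membrane proteolipid neuronatin, starts at chr2:157560078 in an intron of Blcap on the opposite strand. Its transcripts have 2 to 4 exons, so that Nnat goes against the name retrogene and is treated here as an intronic imprinted gene. The Inpp5f variant is not a separate annotated gene. It was placed at the internal Inpp5f transcript start with the most reference CpGs within 500 bp (56 CpGs), at chr7:128688489, 77161 bp after the start of the gene. Another internal Inpp5f transcript starts 76218 bp after the gene start, and its window of 1 kb either side held the same 18 listed CpGs.

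The levels below are means over windows of 1 kb either side of each start, and part of each window is shown first. The printed stretches hold 10 of the 78 listed cytosines at Zrsr1, 12 of 18 at the Inpp5f variant and 22 of 35 at Nnat. These stretches hold 21 of 33 at Mcts2 and 20 of 23 at Nap1l5. They are printed 5′ to 3′ in the direction of the insert from the GRCm38 reference, with the CpGs that have a listed value on at least 1 strand in capitals. The Mcts2, Zrsr1 and Inpp5f variant stretches lie upstream of the start in an intron of the host, the Nap1l5 stretch lies in its coding sequence, and the Nnat stretch lies downstream of the start across coding and noncoding exon sequence.
Mcts2 (chr2:152686811-152686982, forward strand): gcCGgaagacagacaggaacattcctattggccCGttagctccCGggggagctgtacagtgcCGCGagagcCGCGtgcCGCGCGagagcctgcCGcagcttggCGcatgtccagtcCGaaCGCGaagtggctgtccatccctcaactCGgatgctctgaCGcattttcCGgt
Nap1l5 (chr6:58906674-58906868, reverse strand): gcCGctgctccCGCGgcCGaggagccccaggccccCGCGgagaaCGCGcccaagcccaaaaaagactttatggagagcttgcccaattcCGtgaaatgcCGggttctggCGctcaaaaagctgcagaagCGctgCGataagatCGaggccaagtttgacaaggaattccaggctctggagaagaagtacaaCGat
Zrsr1 (chr11:22971861-22972002, forward strand): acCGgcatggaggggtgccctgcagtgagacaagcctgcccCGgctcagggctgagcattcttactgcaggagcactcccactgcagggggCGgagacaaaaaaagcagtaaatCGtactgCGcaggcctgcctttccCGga
Nnat (chr2:157560272-157560472, forward strand): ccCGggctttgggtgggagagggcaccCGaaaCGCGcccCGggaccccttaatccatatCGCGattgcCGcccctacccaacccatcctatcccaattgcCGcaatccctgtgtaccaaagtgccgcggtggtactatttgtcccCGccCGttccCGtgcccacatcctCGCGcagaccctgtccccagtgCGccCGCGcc
Inpp5f variant (chr7:128688206-128688406, forward strand): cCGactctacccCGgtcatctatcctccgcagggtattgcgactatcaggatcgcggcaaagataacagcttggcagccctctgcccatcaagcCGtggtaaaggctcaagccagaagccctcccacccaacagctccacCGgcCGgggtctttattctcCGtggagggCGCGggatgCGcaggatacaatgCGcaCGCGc

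Levels at the starts were averaged over all listed CpGs within 1 kb either side of the annotated start. All 5 insert starts had a lower mean in XX than in XO cells, with differences of -18.8 points at Nap1l5, -9.43 at Zrsr1, -5.99 at Mcts2, -1.67 at the Inpp5f variant and -0.150 at Nnat. A lower mean in XX was also found at 64.5% of 12333 protein-coding gene starts with at least 10 CpGs, and at Nnat the difference was 2.60 points with each read end counted once. The median over the 5 was 11.4% in XX and 24.1% in XO, and the median difference was -5.99 points. Only Nap1l5 was lower by at least 10 points, a difference found at 6.58% of these gene starts. At Zrsr1 the difference was -10.0 points with each read end counted once, -11.7 with windows of 2 kb and -17.8 with windows of 500 bp. On the forward strand alone it was -3.85, so whether Zrsr1 reached 10 points depended on the setting. In XO cells, 4 of the 5 insert starts were at 20% or more, against 12.9% of the gene starts. When the read end that moved each difference most was left out, Zrsr1 was at 18.9% and Nnat at 19.8% in XO. Nap1l5 (31.1%) and the Inpp5f variant (27.5%) then stayed above 20%. The count thus depended on single read ends at Zrsr1 and Nnat.

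**Figure D1:**
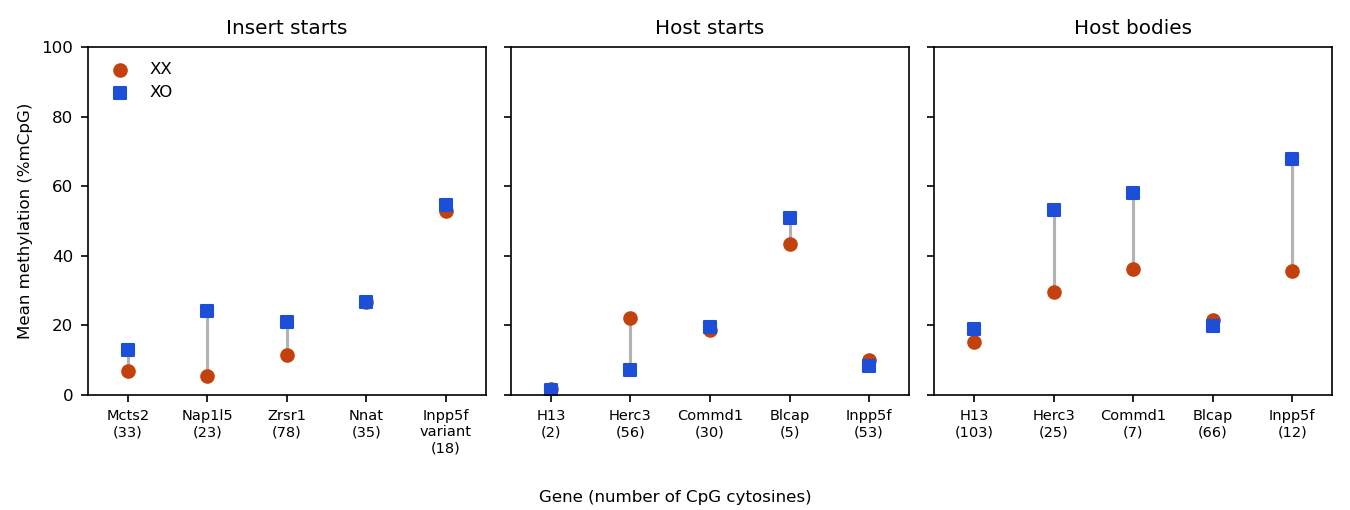
Mean %mCpG in XX (circles) and XO cells (squares) at the insert starts, the host starts and the host bodies, with the number of CpG cytosines in parentheses and a line joining the libraries. XX is far below XO at the Nap1l5 start and in the bodies of Herc3, Commd1 and Inpp5f, whereas the Herc3 start is higher in XX, and the symbols overlap at Nnat (26.6% and 26.7%).

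At Nap1l5, 23 CpGs from 4 read ends averaged 5.26% in XX and 24.1% in XO. The CpGs ran from 0% to 13.6% in XX, with a median of 2.38%, and from 0% to 60% in XO, with a median of 18.2%. All 23 lie in the coding sequence, from 198 to 442 bp after the start. Each of the 4 read ends was lower in XX, with a difference of -7.87 points at the one nearest to the start (5.32% and 13.2%) and -38.8 points at the one farthest from it (2.90% and 41.7%). XX cells thus had 21.8% of the XO level, and without any single read end the difference stayed between -25.9 and -15.9 points.

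At Zrsr1, 78 CpGs from 23 read ends averaged 11.4% in XX and 20.8% in XO. They ran from 0% to 53.8% in XX, with a median of 4.08%, and from 0% to 62.5% in XO, with a median of 18.5%. XX was lower in 18 of the 23 read ends, by at least 10 points in 13 of them, and higher by at least 10 points in 3. The difference depended on position. From 78 to 123 bp after the start, 6 CpGs averaged 1.94% in XX and 44.0% in XO, whereas 6 CpGs from 576 to 641 bp averaged 49.1% and 30.8%, the other way round. Within 500 bp of the start the difference was -17.8 points, and in the rest of the gene, beyond 1 kb, 19 CpGs averaged 24.96% in XX and 47.2% in XO.

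At Mcts2, 33 CpGs from 6 read ends averaged 6.70% in XX and 12.7% in XO. They ran from 0% to 16.7% in XX, with a median of 5.17%, and from 0% to 42.9% in XO, with a median of 6.25%. Both libraries were low over the printed stretch upstream of the start, where 21 cytosines of 18 CpGs averaged 4.81% and 5.83%. The 22 CpGs in the H13 intron averaged 5.14% in XX and 5.92% in XO, and the 11 CpGs in the transcribed Mcts2 sequence averaged 9.84% and 26.3%. The difference therefore came mainly from 1 read end, from 43 to 114 bp after the start, where 7 CpGs averaged 7.97% and 33.2%, and without it the difference at Mcts2 was -0.809 points.

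At Nnat, 35 CpGs from 7 read ends averaged 26.6% in XX and 26.7% in XO, but single read ends differed by much more, in both directions. From 340 to 400 bp after the start, 9 CpGs averaged 18.8% in XX and 46.8% in XO. Next to them, from 233 to 294 bp, 5 CpGs averaged 74.0% and 38.9%, and from 134 to 197 bp, 5 CpGs averaged 52.0% and 25.2%. The 8 CpG cytosines of the fragment between them averaged 2.59% in XX and 3.85% in XO on the forward strand and 1.32% and 0% on the reverse strand. The near-equal means of Nnat are thus a balance of unlike stretches, and leaving out single read ends moved the difference from -6.03 to 9.49 points.

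At the Inpp5f variant, 18 CpGs from 4 read ends averaged 52.9% in XX and 54.5% in XO, the highest level of the 5 insert starts in both libraries. The level varied along the stretch in the same way in both. At -441 to -398 bp from the start, 2 CpGs averaged 15% in XX and 22.2% in XO. At -332 to -270 bp, 5 CpGs averaged 30.4% and 33.3%. At -188 to -142 bp, 2 CpGs averaged 12.96% and 18.2%, and at -139 to -69 bp, 9 CpGs averaged 82.6% and 81.5%. The level rests on the last of these read ends, without which it was 23.1% in XX and 27.5% in XO. XX cells had 96.9% of the XO level, and without any single read end the difference stayed between -4.41 and -0.971 points.

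**Figure D2:**
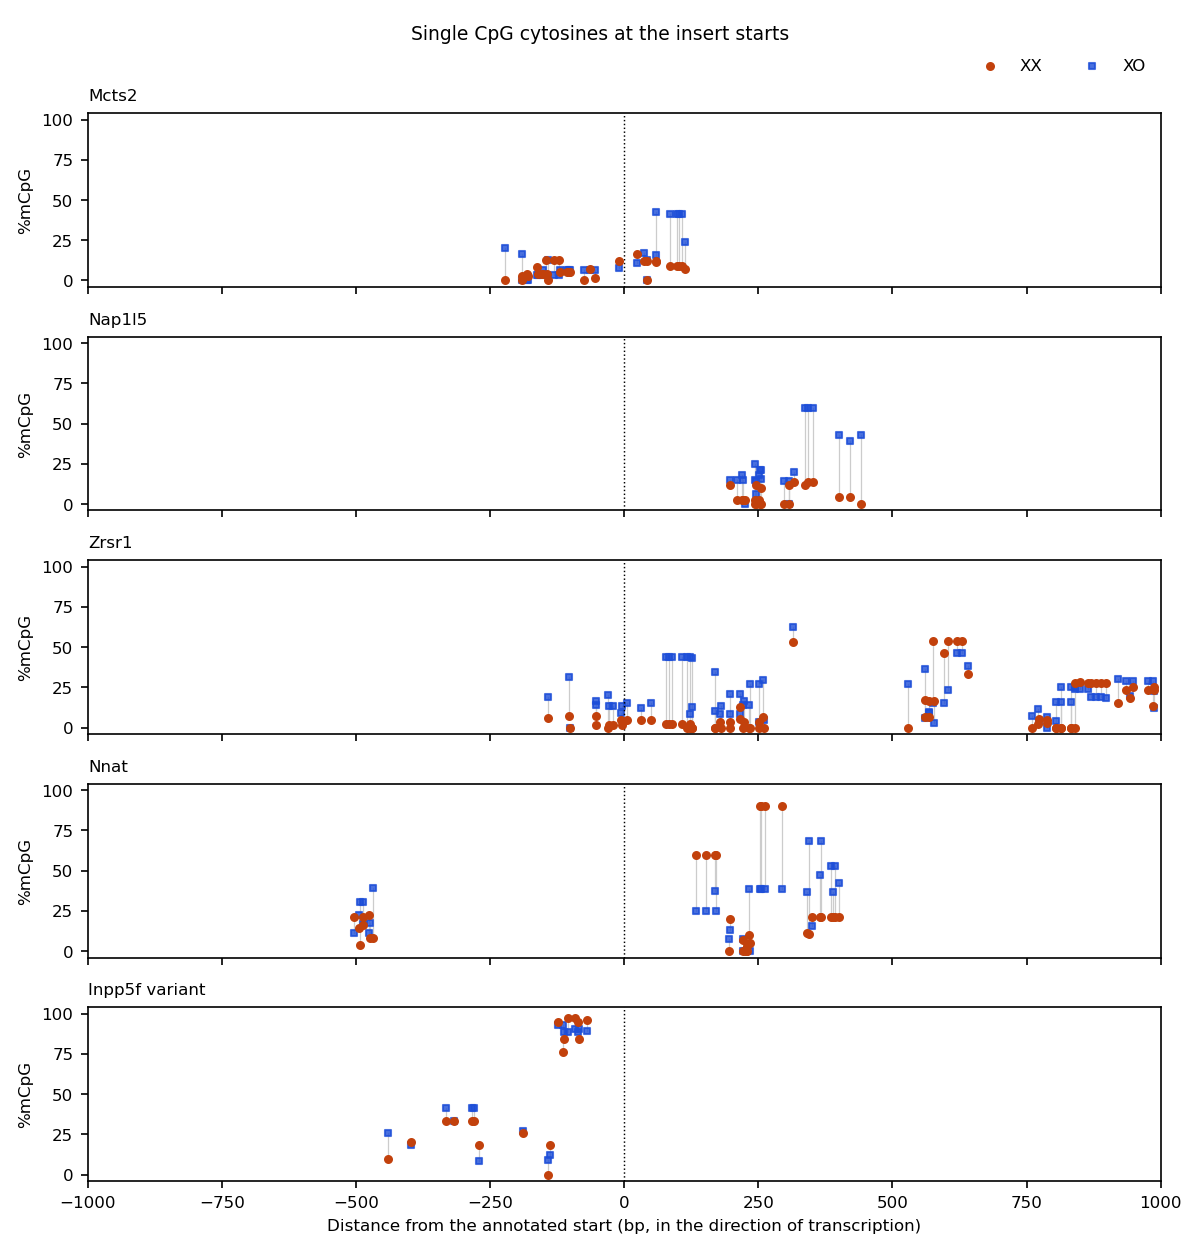
%mCpG of each listed CpG cytosine (points; XX circles, XO squares, joined by a line) against its distance in bp from the annotated start (dotted line) of each insert. XO lies above XX throughout most of Nap1l5 and the first part of Zrsr1, Nnat changes order between neighbouring stretches, and the Inpp5f variant has similar values in both libraries, up to 97.4% in XX and 93.0% in XO.

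The host starts were read in the same windows, but unevenly. Herc3, of the HECT family of ubiquitin ligases, had 56 CpGs from 8 read ends at its start (chr6:58831465, forward strand), which averaged 22.1% in XX and 7.21% in XO. It was the only 1 of the 5 hosts that was at least 10 points higher in XX, which held for 1.35% of gene starts. Of this, 12 CpGs of 1 read end, from 274 to 342 bp after the start, averaged 82.8% in XX and 24.4% in XO, and the other 7 read ends differed by -5.60 to 13.6 points. Without that read end the difference at Herc3 was 3.09 points, against 14.9 points with it.

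At Commd1, which encodes a protein of copper handling and NF-kappaB control, 30 CpGs from 5 read ends (chr11:22982382, reverse strand) had a mean of 18.6% in XX and 19.4% in XO. Here too neighbouring stretches differed in direction, with 43.6% in XX and 16.5% in XO from 90 to 162 bp after the start and 4.35% and 21.1% from 183 to 246 bp. The start of Inpp5f, a phosphoinositide phosphatase gene, lies at chr7:128611328 on the forward strand, and its 53 CpGs from 9 read ends averaged 9.84% in XX and 8.35% in XO. The median CpG there was at 3.23% in XX and 0% in XO. Single read ends differed in both directions, with 23.1% in XX and 6.02% in XO from 55 to 102 bp after the start. From 547 to 595 bp the means were 23.3% and 60%. With each read end counted once the difference at Inpp5f was -2.52 points.
H13, which encodes the signal peptide peptidase, had only 2 listed CpGs at its start (chr2:152669461, forward strand), and their mean was 1.72% in XX and 1.45% in XO. Blcap, the bladder cancer associated protein gene, had 5 CpGs near its annotated start (chr2:157571274, reverse strand), all upstream of it, with means of 43.3% and 50.9%. That window is poor in CpGs, with 13 in the reference. Other protein-coding Blcap transcripts start at chr2:157566361, where 58 CpGs from 13 read ends averaged 17.1% in XX and 14.96% in XO. The levels of H13 and of the annotated Blcap start rest on 2 read ends each.

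**Figure D3:**
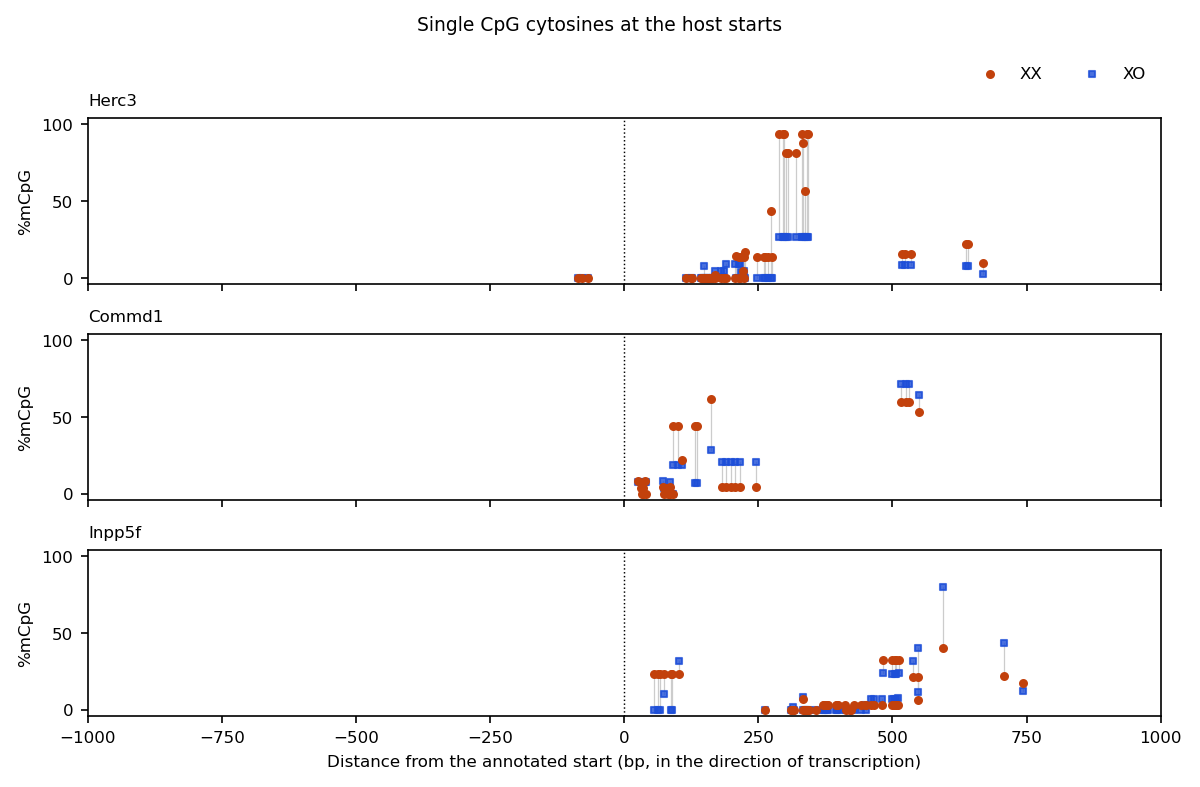
%mCpG of each listed CpG cytosine (XX circles, XO squares) against its distance in bp from the annotated start of Herc3, Commd1 and Inpp5f, the 3 hosts with at least 10 CpGs there. A block of Herc3 CpGs from 274 to 342 bp reaches 93.8% in XX and at most 26.7% in XO, and in Commd1 and Inpp5f the order of the libraries changes between neighbouring blocks.

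Insert and host starts were then compared within each locus. In XO cells, the Mcts2 start was 11.2 points above the H13 start, the Nap1l5 start 16.9 points above the Herc3 start and the Inpp5f variant start 46.2 points above the Inpp5f start, the last resting mostly on 1 read end of the variant. The Zrsr1 start was 1.41 points above the Commd1 start, and the Nnat start lay below the annotated Blcap start, with a difference of -24.1 points. With Blcap read at chr2:157566361, Nnat instead lay 11.8 points above it. Without its read end from 43 to 114 bp, Mcts2 was at 7.17% in XO, less than 10 points above the 1.45% of H13. Without its read end from -139 to -69 bp, the Inpp5f variant was at 27.5%, against 8.35% at the Inpp5f start. With the annotated starts and all read ends, an insert at least 10 points above its host was thus found at 3 of 5 loci. The share was 20.8% of 212 protein-coding genes that lie within another protein-coding gene, with at least 10 CpGs at both starts. The starts of H13 and Blcap had fewer, so that the Mcts2 and Nnat loci would not have entered this background. The Inpp5f locus would not have entered it either, as the variant is not a separate annotated gene. Only the Nap1l5 and Zrsr1 loci are themselves among the 212, and of these Nap1l5 alone lay at least 10 points above its host. Many of the 212 share the host Gm20388 or Fgfr2.
In XX cells the order changed at 2 loci. Nap1l5 then lay below Herc3, with a difference of -16.9 points, and Zrsr1 below Commd1, with -7.25 points, whereas Mcts2 stayed 4.98 points above H13 and the Inpp5f variant 43.0 points above the Inpp5f start. The median over the 5 loci was 11.2 points in XO and -7.25 points in XX cells. The value in XX cells depended on Blcap, and with Blcap read at chr2:157566361 it was 4.98 points. Without the Herc3 read end described above, the Herc3 start was at 5.60% in XX and 2.50% in XO, and its XX level was then close to the 5.26% of Nap1l5. Without its read end from 90 to 162 bp, the Commd1 start was at 12.4% in XX and 20.1% in XO. Both levels were close to the 11.4% and 20.8% of Zrsr1. The median of the 5 differences between XX and XO at the host starts was 0.275 points, which is the value of H13 and rests on its 2 CpGs.

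**Figure D4:**
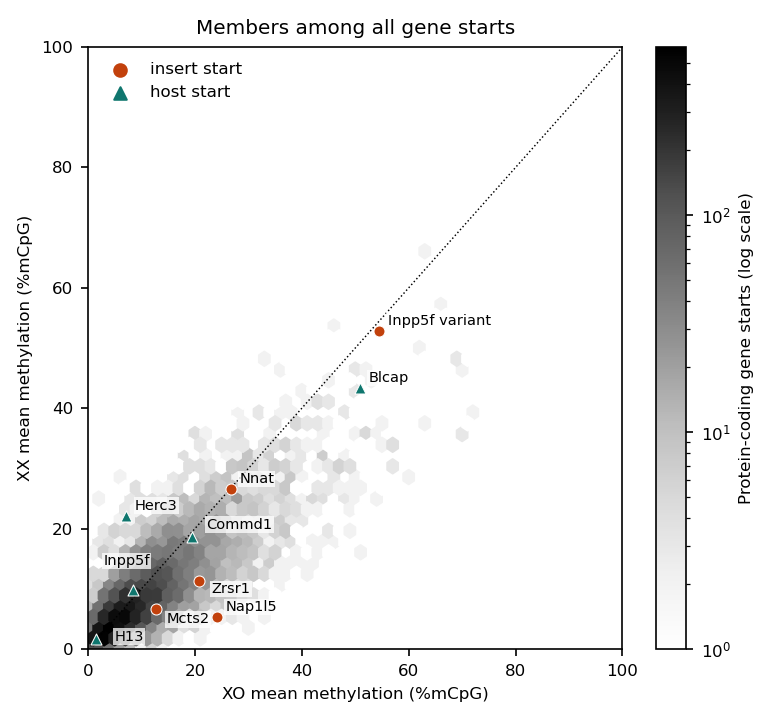
Mean %mCpG in XX cells against XO cells for 12333 protein-coding gene starts with at least 10 CpGs (grey shading, number of starts on a log scale), the insert starts (circles) and the host starts (triangles), with equality dotted. Nap1l5 and Zrsr1 lie below the line, Herc3 lies above it, and Nnat and the Inpp5f variant lie close to it at 26.7% and 54.5% in XO; H13 and Blcap have 2 and 5 CpGs.

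The bodies of the hosts, from 1 kb after the start to the gene end and without the insert, were lower in XX cells at 4 of 5 hosts and at 94.7% of 10752 gene bodies. In Inpp5f, 12 CpGs from 6 read ends averaged 35.7% in XX and 67.8% in XO. In Herc3, 25 CpGs from 16 read ends averaged 29.6% and 53.0%, and in Commd1, 7 CpGs from 3 read ends averaged 36.0% and 58.0%. These 3 were lower by at least 10 points, which was the case for 62.8% of gene bodies, so that neither count stands above the background. Commd1, with 7 CpGs, is under the minimum of 10 CpGs used for the background.
Along Herc3, the 4 CpGs at 8.18 to 8.24 kb from the start were at 5.48% to 26.0% in XX and 22.5% to 45% in XO, and the 3 CpGs at 72.0 to 72.2 kb, just before Nap1l5, were at 10.3% to 37.0% and 30.8% to 80%. In Inpp5f, 5 CpGs at 37.5 kb were at 29.2% to 54.2% in XX and 88.5% to 100% in XO. The body of Inpp5f thus differed by -32.1 points, while the variant start within it differed by -1.67 points.
In H13, 103 CpGs from 33 read ends averaged 15.1% in XX and 18.97% in XO. In XX, 45 of these CpGs were lower, 42 higher and 16 equal, and with medians over CpGs the difference was 0.882 points. Most of the 103 CpGs lie toward the gene end, and the 70 CpGs from 30 to 40 kb after the start averaged 13.8% and 15.2%. Closer to the start, 4 CpGs at 11.2 to 11.4 kb were at 42.1% to 50% in XX and 44.0% to 86.8% in XO. In Blcap, 66 CpGs from 16 read ends averaged 21.5% and 19.7%, but 58 of them belong to the start at chr2:157566361. The remaining 8, which lie 1 to 5 kb upstream of Nnat, averaged 53.5% in XX and 54.0% in XO.

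**Figure D5:**
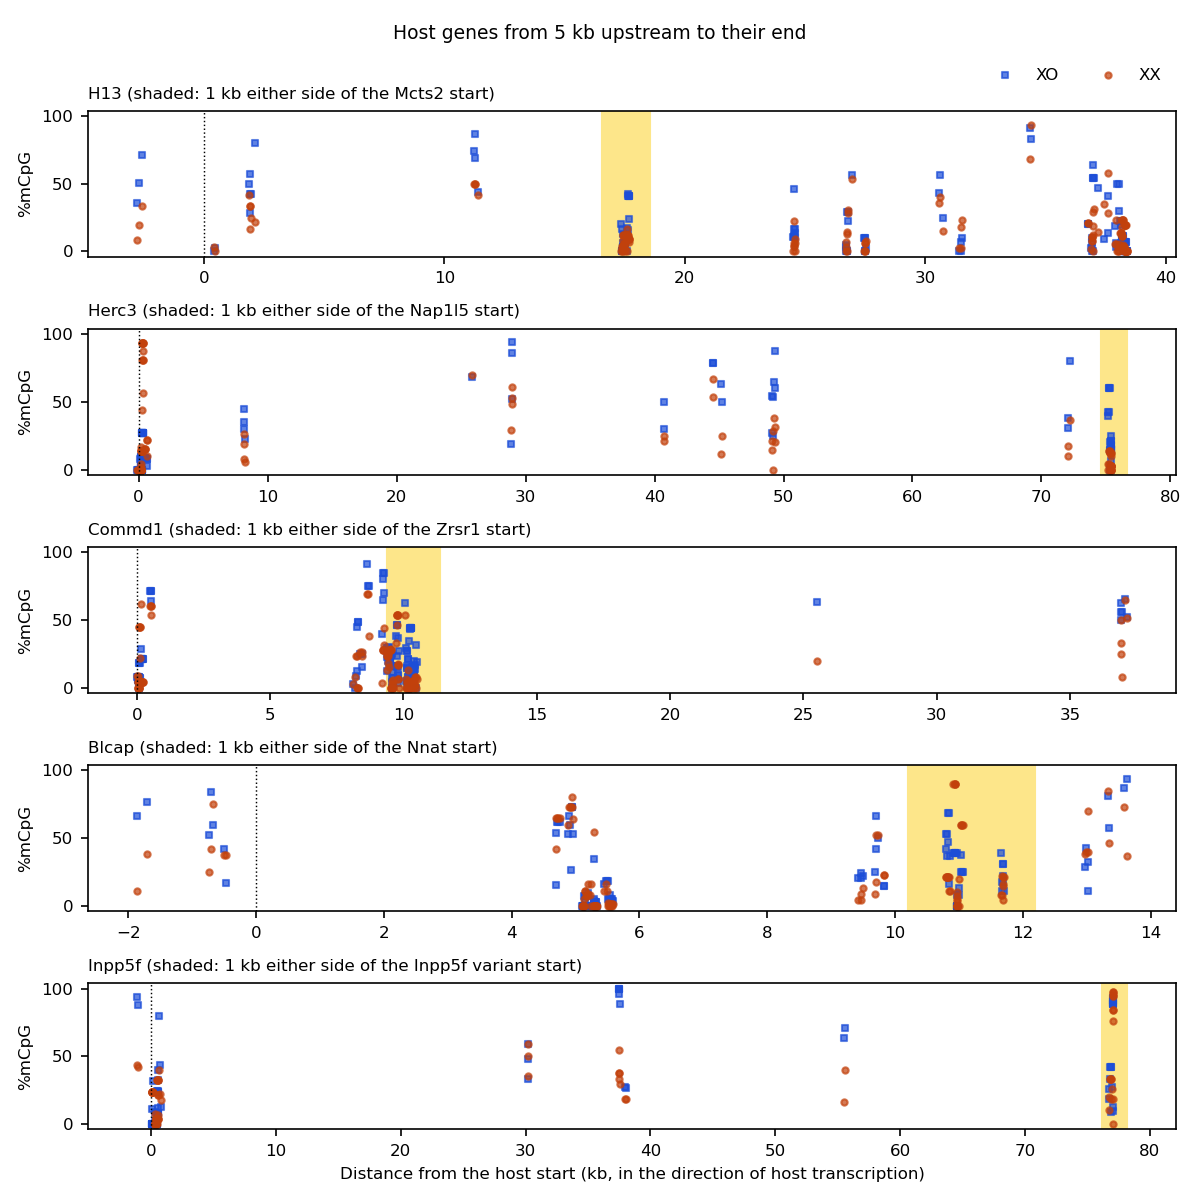
%mCpG of each listed CpG cytosine (XX circles, XO squares) along each host gene, against the distance in kb from the host start (dotted line), with 1 kb either side of the insert start shaded. Outside the dense blocks, XO values are mostly above XX values in H13, Herc3, Commd1 and Inpp5f, where the body means differ by -3.85 to -32.1 points.

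Few CpGs were listed from 1 to 5 kb upstream of the members. Upstream of Inpp5f, 2 CpGs averaged 42.5% in XX and 90.7% in XO. Upstream of Blcap, 2 CpGs averaged 24.5% and 71.6%, and upstream of H13, 3 CpGs averaged 20.4% and 52.8%. The mean of the start was also lower in XX at Blcap, but not at Inpp5f or H13, and each of these signs depended on single read ends. Leaving out 1 read end gave differences of -18.1 to 8.33 points at the Blcap start, -0.880 to 2.99 at Inpp5f and -2.90 to 3.45 at H13. No CpG was listed there for Mcts2, Nap1l5, Zrsr1, Herc3 or Commd1.

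For comparison, the median protein-coding gene start was at 6.96% in XX and 8.19% in XO, with a median difference of -1.16 points. Among the 4887 starts with an XO level of 10% to 60%, which spans the levels of the inserts, the median difference was -3.75 points and XX cells had a median of 76.4% of the XO level. Nap1l5 (21.8%), Mcts2 (52.8%) and Zrsr1 (54.7%) were below that median, and the Inpp5f variant (96.9%) and Nnat (99.4%) were above it. Without the read end from 43 to 114 bp, Mcts2 was above it too, at 88.7%. Nap1l5 was also below the 5th centile of these starts, which was 32.9%.
Of 11 other imprinted gene starts, 8 had at least 3 listed CpGs. Their median was 15.6% in XX and 33.1% in XO, and their differences ran from -40.7 points at Kcnq1ot1 to 3.0 points at Plagl1. In XX, 7 of the 8 were lower, against 64.5% of gene starts, and 6 were lower by at least 10 points, against 6.58%. Kcnq1ot1 and Slc38a4, with 7 CpGs each, and Peg3, with 8, are under the minimum of 10 CpGs used for that background. Peg3 (14.6% and 31.9%), Grb10 (15.7% and 34.3%) and Peg10 (15.4% and 30.8%) lay near each other, and all 3 had more methylation in XX cells than Nap1l5. This list was chosen with earlier results of these data known.
The X-linked relatives of the single-exon inserts were close to the median gene start in XX cells (6.96%). In XO cells they were above the 75th centile of gene starts (13.9%). Mcts1 had 7 CpGs at 6.62% in XX and 14.3% in XO, close to Mcts2, and Zrsr2 had 32 CpGs at 7.27% and 15.6%. The X chromosome is present once in XO cells, so these starts differ in copy number between the libraries, and the part this plays was not tested. The 3 other gene starts nearest to the median insert start, by Euclidean distance over the 2 libraries, were those of Dusp12 and Gm26620, which share 49 CpGs (11.7% and 23.9%), and Vps13d (11.1% and 24.4%).

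The ZFP57 motif TGCCGC was counted on both strands of each window of 2001 bp. It occurred 6 times at Nnat, 6 times at the Inpp5f variant, 5 times at Nap1l5, 3 times at Mcts2 and 0 times at Zrsr1. At the host starts it occurred 2 times at Herc3, once each at H13 and Commd1, and 0 times at Blcap and Inpp5f. At least 1 motif was present at 43.0% of 21938 protein-coding starts and at least 4 at 2.82%. Of the listed CpGs of the inserts, 7 lay in a motif. The 2 in Nnat were at 90.0% in XX and 38.9% in XO, and the 1 in the Inpp5f variant was at 96.3% and 89.2%. The 3 in Mcts2 averaged 11.1% and 3.23%, and the 1 in Nap1l5 was at 2.38% and 15.2%. Each of these shares its reads with neighbouring CpGs, and the letters alone do not show that the motif is bound.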

How the data were processed

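DNA methylation was measured by RRBS in 1 XX and 1 XO library (NuGEN Ovation Methylseq kit per the labels). The authors deposited the percent of methylated reads per CpG cytosine for both libraries. Bismark, bcl2fastq and mm10 are named in the submitters' processing notes, and the coverage minimum is not given in the sources used here. The depth is unknown, so counting intervals cannot be given, and a value of 0% or 100% can rest on few reads. The table had 0 further sample columns.

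Means over CpGs were computed 1 kb either side of the GENCODE M21 gene start and over host bodies. Background values used protein-coding genes with at least 10 CpGs. Members, lists, windows and thresholds (10 points, 20%) were chosen with earlier results of these data known. The genes named are the members, their X-linked relatives, 11 other imprinted genes and the 3 starts nearest to the median insert. The code was checked on simulated data. Of 333 CpGs in the member windows, 331 had a unique surrounding 40 bp in the C-to-T converted reference, and the other 2 are in Zrsr1. Numpy 2.4.6, numba 0.67.0, pandas 2.3.3 and matplotlib 3.10.9 were run in Python 3.11.15.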

Additional observations from a re-analysis of the deposited data

How the results depend on the processing

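Alternatives were compared by value only, as there are no replicates, and a value was said to move when it changed by over 1.5 times and at least 2 points. Of the 5 medians over loci, 42 recalculated values stayed, 20 moved and none of a size of 10 points or more changed sign. For single starts and bodies, 124 values stayed and 57 moved. No paired analysis was possible because each karyotype has 1 library and no test was made.

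With windows of 500 bp, the median over host starts was 3.80 points. With windows of 2 kb, the median of insert minus host start was 6.76 points in XO and -10.9 in XX cells. The XX value was -0.272 with medians over CpGs and -0.283 with only CpGs listed on both strands, a setting that drops CpGs read on 1 strand. It left no value for the starts of H13, Blcap and the Inpp5f variant, so that -0.283 covers only the Nap1l5 and Zrsr1 loci. It gave -0.872 points for host bodies, the value of Blcap, beside 0.261 in H13 and -19.2 in Herc3. The bodies of Commd1 and Inpp5f had no value in that setting. Leaving out each locus in turn (leave-one-out) gave -7.71 to -3.83 points for insert starts, -0.250 to 0.882 for host starts, -22.7 to -12.9 for host bodies, and 6.33 to 14.1 in XO and -12.0 to -1.14 in XX cells for insert minus host start. Insert starts were at -3.83 without Nap1l5 or without Zrsr1, and host bodies at -12.9 without Herc3 or Inpp5f and -13.6 without Commd1. Insert minus host start was 6.33 in XO without the Nap1l5 or the Inpp5f locus, and in XX -1.14 without the Nap1l5 or the Nnat locus and -12.0 without the Mcts2 or the Inpp5f locus. Alternatives chosen after seeing the data gave an insert minus host start of -11.1 in XX with each read end counted once, 4.98 in XX with Blcap at its CpG-dense start, and 16.9 in XO with only the hosts that have at least 10 CpGs.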

Other observations

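The values were also split by the annotation of the read CpGs at 2 loci. At the Zrsr1 start, the 10 CpGs in the Commd1 intron averaged 3.34% in XX and 14.96% in XO, and the 54 in untranslated Zrsr1 sequence averaged 14.5% and 23.5%. Another 14 CpGs, which an exon of a noncoding Commd1 transcript also covers, averaged 5.11% and 14.6%. At the Herc3 start, the 47 CpGs in untranslated sequence averaged 24.3% and 7.65%, and the 6 CpGs in the following intron averaged 16.7% and 7.32%. The untranslated mean rests on the read end from 274 to 342 bp, whose 12 CpGs averaged 82.8% in XX and 24.4% in XO. The other untranslated read ends averaged 0% to 14.0% in XX and 0% to 6.08% in XO, so the annotation does not separate the values there.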
